A study of Mus musculus with 15 samples.

Results

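Hox genes encode transcription factors that share a DNA-binding homeodomain and sit in 4 clusters, A to D, on different chromosomes. Within a cluster the genes lie in the order in which they are used along the body axis, and genes of the same paralog number in different clusters descend from a common ancestor. Low paralog numbers act in the hindbrain and neck, central numbers in the trunk, and high numbers in the lower trunk, the limbs and the urogenital tract. Trithorax and Polycomb proteins keep Hox genes on or off through chromatin, and adult kidney epithelium and many renal tumors continue to express part of the set. Of 18279 genes in the normalized count table, 29 have a symbol made of Hox, a cluster letter from a to d and a number, and 28 of them are the members described here. Of these, 9 belong to cluster A, 8 to cluster B, 6 to cluster C and 5 to cluster D. The cluster genes with no row in that table were not analysed here.

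RNA was sequenced in bulk from 15 subcutaneous tumors that grew from Renca cells, a renal carcinoma line of the BALB/c mouse, after injection in Matrigel into the backs of female BALB/c mice aged 4 to 6 weeks. Tumors 1 to 5 came from control cells, tumors 6 to 10 from *Pbrm1* knockout clone 4 and tumors 11 to 15 from *Pbrm1* knockout clone 18. *Pbrm1* encodes a subunit of the SWI/SNF chromatin remodeling complex, and the lines were made by transient transfection with CRISPR/Cas9 plasmids. For the knockout lines a repair plasmid with puromycin resistance and a red fluorescent protein was added, and each clone grew from 1 sorted cell. The control line received a control CRISPR/Cas9 plasmid according to the study's methods, whereas the sample records call these cells parental. Mice of the study were left untreated or received PD-1 antibody, and the sources do not say which mice gave these 15 tumors. The 5 tumors of a group are replicate tumors of 1 line, so that p-values measure only the spread between such tumors, and effects of *Pbrm1* and of a line cannot be told apart. In bulk RNA, fewer cells of a type and less RNA per cell cannot be told apart either.

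Between 32924414 and 49099168 reads per tumor fell on genes, with a median of 40860659, and reads carry no molecular identifiers, so read numbers give counting error only. Values are normalized counts, in which 1 read was worth 0.881 to 1.31 depending on the tumor. Genes were compared on log2(normalized count + 1) with limma over 18250 genes, and a gene was called when its p-value, adjusted by the Benjamini-Hochberg method over all of them, was under 0.05. *Pbrm1* itself averaged 9012 ± 956 in the control (SD, n = 5 per group), 2751 ± 213 for clone 4 and 2838 ± 210 for clone 18, with no overlap between control and knockout tumors. The 9 markers of renal epithelium were above 0 in all 15 tumors, and their summed normalized count ranged from 98526 to 138523.

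The sequence that the members have in common is shown for 9 of them, those whose values the comparisons below turn on most. The 30 bases of each transcript that encode the part of the homeodomain helix that lies in the major groove of DNA are given 5′ to 3′ from GENCODE M21, and capitals mark bases that differ from *Hoxc4*.
*Hoxc4*: tggttccaaaaccgtcgtatgaaatggaag
*Hoxc6*: tggttccaGaaccgCcgCatgaaGtggaaA
*Hoxc9*: tggttTcaGaaccgGAgGatgaaGATgaaA
*Hoxa9*: tggttccaGaaccgCAgGatgaaaATgaag
*Hoxa11*: tggttTcaGaacAgAAgAatgaaGGAAaaA
*Hoxb6*: tggttTcaGaaccgGcgCatgaaGtggaaA
*Hoxb7*: tggttTcaGaaccgGcgCatgaaGtggaaA
*Hoxd8*: tggttccaGaacAgGAgAatgaaatggaaA
*Hoxd9*: tggttccaGaaccgtAgGatgaaaATgaaA
Between 5 and 11 of the 30 bases differed from *Hoxc4* in these 8 other genes. Over whole transcripts, none of the 50-base runs of *Hoxc4* or *Hoxc6* occurred in a transcript of another gene. In *Hoxc9*, 1.4% of such runs, 34 in number, occurred in a gene on another chromosome, and *Hoxb6* and *Hoxb9* were among the genes that held them. Of the 28 members, 16 had an entry in the set of RefSeq (GRCm38.p6) promoters used here. The 250 bases before the start are shown for 3 members that were higher in knockout tumors. Capitals mark matches, on either strand, to common promoter motifs: the TATA box written as TATAAA, the box named CCAAT, the GC box with the letters GGGCGG and the E-box with the letters CACGTG. No match overlaps another in these windows.
*Hoxa9* (chr6:52227371-52227620, minus strand): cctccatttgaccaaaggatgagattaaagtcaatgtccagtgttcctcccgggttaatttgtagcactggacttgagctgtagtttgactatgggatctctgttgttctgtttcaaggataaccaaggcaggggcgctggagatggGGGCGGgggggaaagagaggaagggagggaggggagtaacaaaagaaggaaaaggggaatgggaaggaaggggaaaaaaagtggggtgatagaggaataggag
*Hoxa11* (chr6:52245811-52246060, minus strand): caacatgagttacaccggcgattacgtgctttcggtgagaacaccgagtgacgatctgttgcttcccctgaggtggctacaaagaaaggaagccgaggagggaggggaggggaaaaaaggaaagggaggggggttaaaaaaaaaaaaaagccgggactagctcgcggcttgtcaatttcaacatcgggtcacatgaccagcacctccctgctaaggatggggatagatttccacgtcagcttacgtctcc
*Hoxd8* (chr2:74704365-74704614, plus strand): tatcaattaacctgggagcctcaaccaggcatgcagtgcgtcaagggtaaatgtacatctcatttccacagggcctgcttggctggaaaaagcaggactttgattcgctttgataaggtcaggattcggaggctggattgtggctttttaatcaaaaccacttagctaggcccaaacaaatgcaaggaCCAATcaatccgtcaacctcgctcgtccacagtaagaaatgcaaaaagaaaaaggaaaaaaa
The *Hoxa9* window held 1 GGGCGG, which 32.7% of 32851 promoters of the same length hold, and the *Hoxd8* window held 1 CCAAT, which 33.8% hold. No match was found in the *Hoxa11* window, of which 98 bases are exon of the noncoding RNAs *Hoxa11os* and *Gm28032* on the other strand. GC content was 49.6% for *Hoxa9*, 52.0% for *Hoxa11* and 44.4% for *Hoxd8*, beside a median of 52.4% over all promoters. TATAAA and CACGTG, held by 12.4% and 6.0% of all promoters, were in none of these 3 windows.

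Hox levels in these tumors were lowest at the anterior end of the clusters. Per kilobase of exon, the median of the normalized counts in control tumors was 8.08 for the 4 members of paralog numbers 1 to 3, 55.0 for the 15 of numbers 4 to 8 and 530 for the 9 of numbers 9 to 13. The highest levels per kilobase in control tumors were those of *Hoxb9* (785 ± 42.6, SD, n = 5), *Hoxd8* (692 ± 29.3), *Hoxa10* (660 ± 45.3) and *Hoxb7* (597 ± 40.3). The lowest were those of *Hoxb2* (5.96 ± 1.56), *Hoxa2* (7.22 ± 2.51) and *Hoxa3* (8.95 ± 2.36). Cluster D had the highest median per kilobase, 576 over 5 genes, followed by 82.6 for cluster C, 63.2 for cluster B and 61.5 for cluster A. All members of numbers 1 to 3 lie in clusters A and B, so cluster and paralog number cannot be told apart in these medians. Neighbouring genes of a cluster could be far apart in level, as *Hoxa6* stood at 61.5 ± 11.1 and *Hoxa7*, the next gene, at 304 ± 31.9 per kilobase. These levels are descriptions, and overlapping transcripts limit some of them, because strand-specific counting is not stated in the sources. *Hoxb3* shares 52.9% of its exon bases with *Hoxb3os* on the other strand, *Hoxa11* shares 35.0% with *Hoxa11os*, and *Hoxd4* shares 52.3% with *Hoxd3* and *Gm28230* on its own strand.

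**Figure D1:**
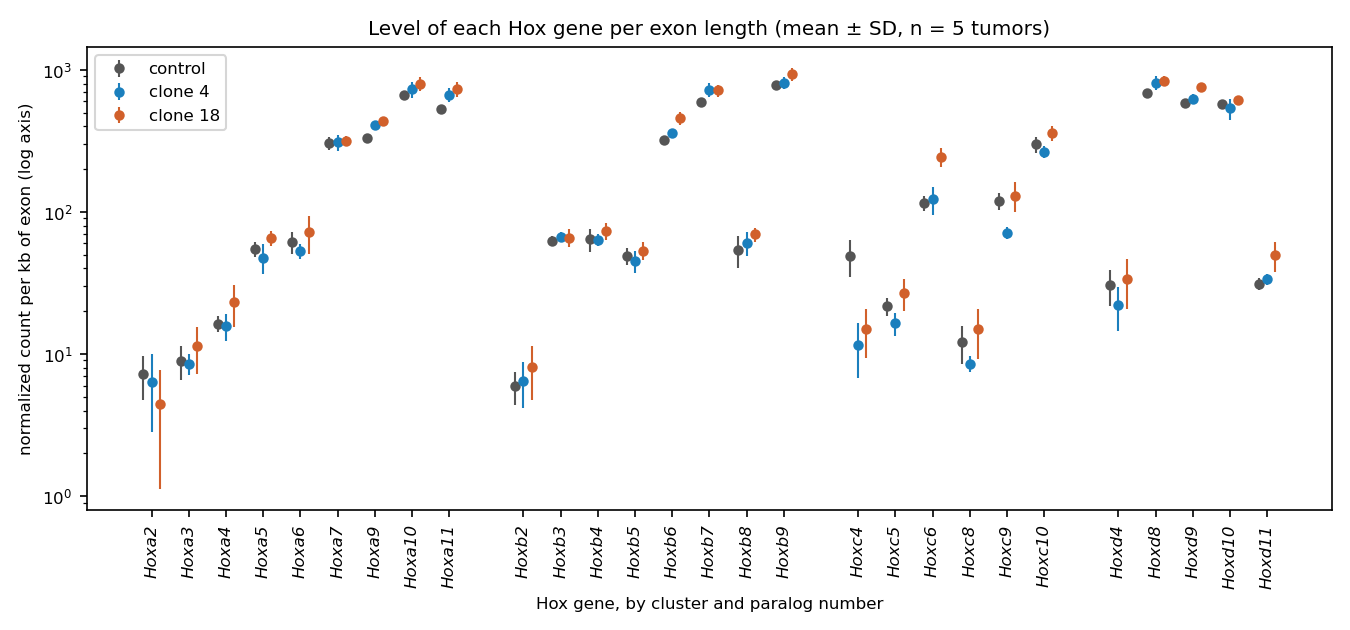
Normalized count per kilobase of exon (log axis) of the 28 Hox genes, ordered by cluster and paralog number; points are means and bars the SD of 5 tumors in control (grey), clone 4 (blue) and clone 18 (orange). *Hoxb9* is highest in control tumors, at 785, and *Hoxb2* lowest, at 5.96, and the means of *Hoxc4* are 11.6 in clone 4 and 15.0 in clone 18 against 49.2 in the control.

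The first comparison asked whether Hox genes differed between the 10 *Pbrm1* knockout tumors and the 5 control tumors. One member, *Hoxc4*, was far lower in the knockout tumors, and 6 members of clusters A, B and D, among them *Hoxa9* and *Hoxa11*, were moderately higher. In all, 7 of 28 members (25.0%) were called, beside 22.1% of all genes tested, so the number of Hox genes called was near the background. By direction there were 6 higher and 1 lower among the members and 9.23% higher and 12.9% lower among all genes. The median log2 difference was 0.12 over the members and -0.02 over all genes, and 20 of 28 members were positive, beside 47.1% of all genes. Between the groups, 3 members did not overlap, beside 7.98% of all genes, with *Hoxa9* and *Hoxa11* wholly higher (3.11% of all genes) and *Hoxc4* wholly lower (4.87%). Without tumor 1 the number called was 4, beside 17.9% of all genes. Left out next, after seeing the values, were the 5 tumors with most skeletal muscle marker RNA (tumors 9, 10, 11, 14 and 15). That kept all 5 control tumors, tumors 6 to 8 of clone 4 and tumors 12 and 13 of clone 18. In this smaller set 6 members were called, beside 17.1% of all genes.

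*Hoxc4*, which helps to pattern the neck and upper trunk (ENSMUSG00000075394, chr15:103018934-103036852, plus strand, GRCm38), had the largest difference of the members. Its normalized count was 75.4, 175.3, 121.5, 146.8 and 113.1 in control tumors 1 to 5, then 25.1, 45.9, 11.9, 35.3 and 31.2 in tumors 6 to 10 of clone 4, and 29.6, 20.9, 58.9, 41.1 and 42.5 in tumors 11 to 15 of clone 18. All 10 knockout tumors lay below the lowest control tumor, tumor 1, and clone 4 tumor 8 was the lowest. The control averaged 126 ± 37.5 (SD, n = 5 in each group), against 29.9 ± 12.6 for clone 4 and 38.6 ± 14.4 for clone 18. Knockout tumors were on average at 27.1% of the control, and the log2 difference was -1.91 (SE 0.30, limma adjusted p = 0.000229). The exact permutation test, two-sided, gave p = 0.000333, the smallest value that 3003 splits allow. Against the same 5 control tumors, clone 4 differed by -2.11 (SE 0.34, limma adjusted p = 0.000377) and clone 18 by -1.71 (SE 0.34, adjusted p = 0.00163). The difference between the clones, 0.40 on the log2 scale, was not called (SE 0.34, limma adjusted p = 0.586). At least 12 reads per tumor lay behind these values, none of the exon bases of *Hoxc4* is shared with another gene, and no other setting or left-out tumor ended these 3 calls. Among the paralogs of *Hoxc4*, the log2 differences in the knockout tumors were 0.19 for *Hoxa4*, 0.11 for *Hoxb4* and -0.21 for *Hoxd4*, and none of these was called (limma adjusted p = 0.633, 0.618 and 0.679).

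**Figure D2:**
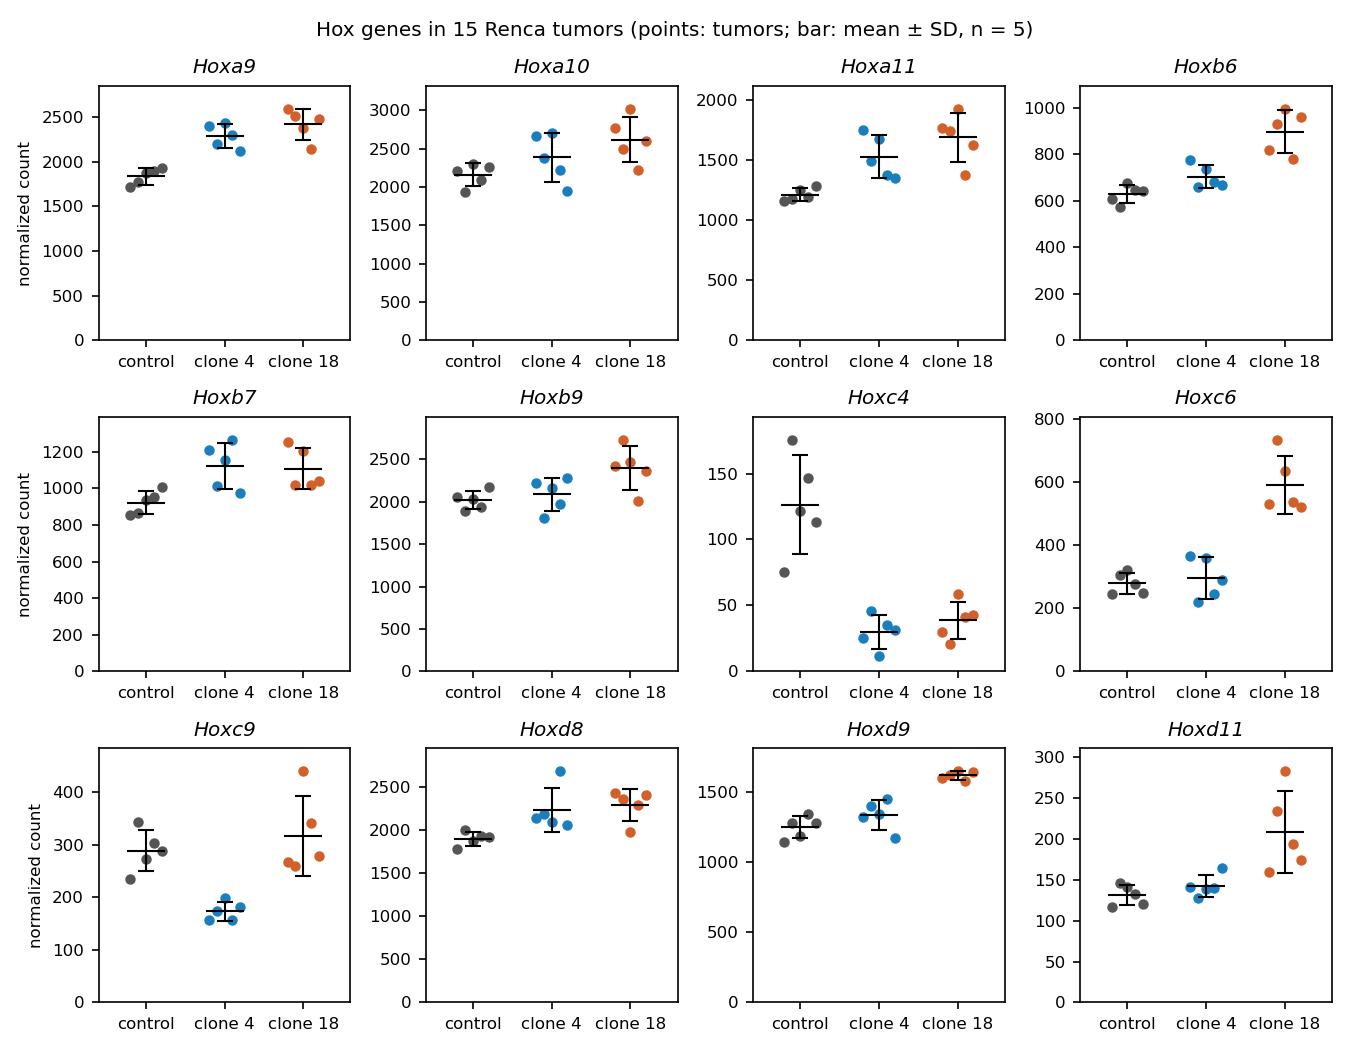
Normalized counts (linear axes from 0) of 12 Hox genes in each of 15 tumors; points are tumors, bars the mean ± SD of 5 tumors. *Hoxc4* is lower in all 10 knockout tumors, *Hoxc9* is lower in clone 4, at a mean of 173 against 289 in control tumors, and *Hoxc6* is higher in clone 18, at 591 against 279.

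*Hoxa9*, a posterior gene known for its part in blood stem cells and leukemia (ENSMUSG00000038227, chr6:52223100-52231089, minus strand), was higher in both clones. In normalized counts it was at 1715.2, 1769.4, 1873.2, 1894.8 and 1936.0 in control tumors 1 to 5, then 2404.1, 2198.8, 2431.0, 2302.9 and 2118.7 in tumors 6 to 10 of clone 4, and 2590.0, 2510.0, 2377.1, 2145.0 and 2480.9 in tumors 11 to 15 of clone 18. Each knockout tumor was above the highest control tumor. Control tumors averaged 1838 ± 92.0 (SD, n = 5 in each group), against 2291 ± 133 for clone 4 and 2421 ± 172 for clone 18. The log2 difference was 0.36 (SE 0.06, limma adjusted p = 0.000228) for all knockout tumors, 0.32 for clone 4 (adjusted p = 0.00203) and 0.40 for clone 18 (adjusted p = 0.000253). The exact permutation test gave p = 0.000333, and no other setting or left-out tumor ended any of these 3 calls.

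*Hoxa11*, a paralog-11 gene needed with *Hoxd11* for the outgrowth of the kidney's ureteric bud (ENSMUSG00000038210, chr6:52242106-52245810, minus strand), was also higher in both clones. The tumors gave normalized counts of 1159.4, 1173.2, 1251.9, 1195.6 and 1284.6 in control tumors 1 to 5, then 1749.3, 1489.7, 1678.0, 1374.4 and 1354.6 in tumors 6 to 10 of clone 4, and 1770.6, 1744.7, 1924.2, 1377.2 and 1628.9 in tumors 11 to 15 of clone 18. The lowest knockout tumors, 10, 9 and 14, still lay above the highest control tumor. On average control tumors had 1213 ± 53.4 (SD, n = 5 in each group), against 1529 ± 178 for clone 4 and 1689 ± 204 for clone 18. Knockout tumors were on average at 133% of the control, and the log2 difference was 0.40 (SE 0.08, limma adjusted p = 0.00213). The exact permutation test gave p = 0.000999. Clone 18 differed from the control by 0.47 (limma adjusted p = 0.00114). For clone 4 the difference was 0.33 (limma adjusted p = 0.0184), a call that was lost without tumor 6 (adjusted p = 0.055) or tumor 8 (adjusted p = 0.0538). *Hoxa11os*, which overlaps it, was at 103 to 127 normalized counts in control tumors.

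In cluster B, *Hoxb6* and *Hoxb7* were higher in knockout tumors. *Hoxb7* is a gene of the ureteric bud and its collecting ducts (ENSMUSG00000038721, chr11:96286623-96290162, plus strand). Normalized counts of the gene were 854.1, 865.8, 933.8, 950.2 and 1004.5 in control tumors 1 to 5, then 1207.3, 1010.0, 1154.8, 1262.9 and 974.7 in tumors 6 to 10 of clone 4, and 1250.1, 1016.3, 1204.2, 1018.4 and 1042.3 in tumors 11 to 15 of clone 18. The control and knockout tumors overlapped, since control tumor 5 was above clone 4 tumor 10, while clone 18 tumors lay above all control tumors. The mean of the control was 922 ± 62.3 (SD, n = 5 in each group), against 1122 ± 125 for clone 4 and 1106 ± 112 for clone 18. The log2 difference was 0.27 (SE 0.08, limma adjusted p = 0.016) over both clones, 0.28 in clone 4 (adjusted p = 0.0376) and 0.26 in clone 18 (adjusted p = 0.0394). Without tumor 1 the first call was lost (0.24, limma adjusted p = 0.0508). The call in clone 4 was lost on leaving out any 1 of tumors 1, 2, 3, 4, 6, 8 and 9 (limma adjusted p = 0.0541 to 0.0979), and that in clone 18 on leaving out any 1 of tumors 1, 2, 3, 4, 11 and 13 (adjusted p = 0.0526 to 0.102). The calls of *Hoxb7* in each clone were lost without the 5 tumors highest in muscle markers, where the differences were 0.28 in clone 4 (limma adjusted p = 0.068) and 0.27 in clone 18 (adjusted p = 0.111).

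*Hoxb6*, which is expressed in lateral mesoderm (ENSMUSG00000000690, chr11:96292476-96301569, plus strand), was raised mainly in clone 18. Its values, in normalized counts, were 608.1, 575.1, 678.8, 646.5 and 642.9 in control tumors 1 to 5, then 774.4, 661.3, 739.1, 679.3 and 668.4 in tumors 6 to 10 of clone 4, and 817.4, 932.6, 994.8, 781.8 and 959.4 in tumors 11 to 15 of clone 18. All clone 18 tumors were above all control and all clone 4 tumors, whereas clone 4 and the control overlapped. The control averaged 630.3 ± 39.7 (SD, n = 5 in each group), against 704 ± 49.7 for clone 4 and 897 ± 92.7 for clone 18. The log2 difference over both clones was 0.33 (SE 0.10, limma adjusted p = 0.0244), lost without tumor 1 (0.32, adjusted p = 0.0576) or tumor 2 (0.30, adjusted p = 0.0698). Clone 18 differed from the control by 0.50 (SE 0.08, limma adjusted p = 0.000341). For clone 4 the difference was 0.16 and was not called (limma adjusted p = 0.217). The clones differed from each other by 0.34 (SE 0.08, limma adjusted p = 0.023), a call that was lost on leaving out any 1 of tumors 7, 9, 13 and 15 (adjusted p = 0.0503 to 0.0594).

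In cluster D, *Hoxd8* and *Hoxd9* were called higher in knockout tumors. *Hoxd8*, the most abundant member of the cluster in control tumors per kilobase (ENSMUSG00000027102, chr2:74704615-74707933, plus strand), rose in both clones. Its normalized count was 1775.6, 1994.0, 1876.0, 1926.2 and 1918.0 in control tumors 1 to 5, then 2143.7, 2190.2, 2094.8, 2681.8 and 2055.3 in tumors 6 to 10 of clone 4, and 2428.8, 2355.0, 1973.9, 2289.4 and 2410.3 in tumors 11 to 15 of clone 18. Clone 4 tumor 9 stood apart at 2681.8, and clone 18 tumor 13 fell within the range of the control. Control tumors averaged 1898 ± 80.4 (SD, n = 5 in each group), against 2233 ± 256 for clone 4 and 2291 ± 186 for clone 18. The log2 difference was 0.25 (SE 0.07, limma adjusted p = 0.0114) over both clones and 0.27 (adjusted p = 0.0161) in clone 18. In clone 4 it was 0.23 (limma adjusted p = 0.0484), and that call was lost on leaving out any 1 tumor apart from 10 and 13 (adjusted p = 0.0551 to 0.121). Without the 5 tumors highest in muscle markers the 3 differences were each 0.18 and none was called (limma adjusted p = 0.0677, 0.148 and 0.137).

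*Hoxd9*, which acts with other paralog-9 genes in the spinal cord and limbs (ENSMUSG00000043342, chr2:74697727-74700208, plus strand), rose in clone 18. In normalized counts it was at 1148.9, 1283.3, 1190.7, 1346.9 and 1281.5 in control tumors 1 to 5, then 1323.1, 1403.7, 1343.8, 1450.7 and 1175.2 in tumors 6 to 10 of clone 4, and 1604.2, 1626.6, 1651.9, 1579.7 and 1647.9 in tumors 11 to 15 of clone 18. Clone 18 tumors spanned only 1579.7 to 1651.9 and lay above every other tumor. On average control tumors had 1250 ± 79.4 (SD, n = 5 in each group), against 1339 ± 105 for clone 4 and 1622 ± 30.4 for clone 18. Clone 18 differed from the control by 0.38 (SE 0.06, limma adjusted p = 0.000478) and from clone 4 by 0.28 (SE 0.06, adjusted p = 0.0181). The clone 4 difference of 0.10 was not called (limma adjusted p = 0.352). Over both clones the difference was 0.24 (SE 0.08, limma adjusted p = 0.0412), a call that was lost on leaving out any 1 of tumors 1, 2, 3, 5, 9 and 11 to 15 (adjusted p = 0.0504 to 0.113). Without the 5 tumors highest in muscle markers, the difference of *Hoxd9* was 0.23 over both clones (limma adjusted p = 0.0757) and 0.27 between the clones (adjusted p = 0.161).

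The clones were then each set against the control, and these comparisons share the 5 control tumors. In clone 4, 6 of 28 members (21.4%) were called, beside 16.8% of all genes, with *Hoxa9*, *Hoxa11*, *Hoxb7* and *Hoxd8* higher (6.79% of all genes) and *Hoxc4* and *Hoxc9* lower (10.0%). The median log2 difference was 0.01 over the members, beside -0.01 over all genes. In clone 18, 11 of 28 members (39.3%) were called, beside 24.7% of all genes, 10 of them higher and 1 lower, beside 10.4% and 14.2% of all genes (13.1% and 11.9% with upper-quartile scaling). The median was 0.27 over the members and -0.02 over all genes, and 26 of 28 members were positive, all but *Hoxa2* and *Hoxc4*. Clone 4 did not overlap the control for 5 members, 3 higher and 2 lower, beside 14.0% of all genes (5.80% higher and 8.20% lower). Clone 18 did not overlap it for 8 members, 7 higher and 1 lower, beside 17.1% of all genes (7.24% higher and 9.82% lower). Without tumor 6 or without tumor 8, 3 members were called in clone 4, beside 13.5% and 13.2% of all genes. Leaving out 1 tumor at a time left 8 to 11 members in clone 18, beside 20.8% to 25.3% of all genes. Without the 5 tumors highest in muscle markers the counts were 4 in clone 4 and 9 in clone 18, beside 13.4% and 17.5% of all genes.

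**Figure D3:**
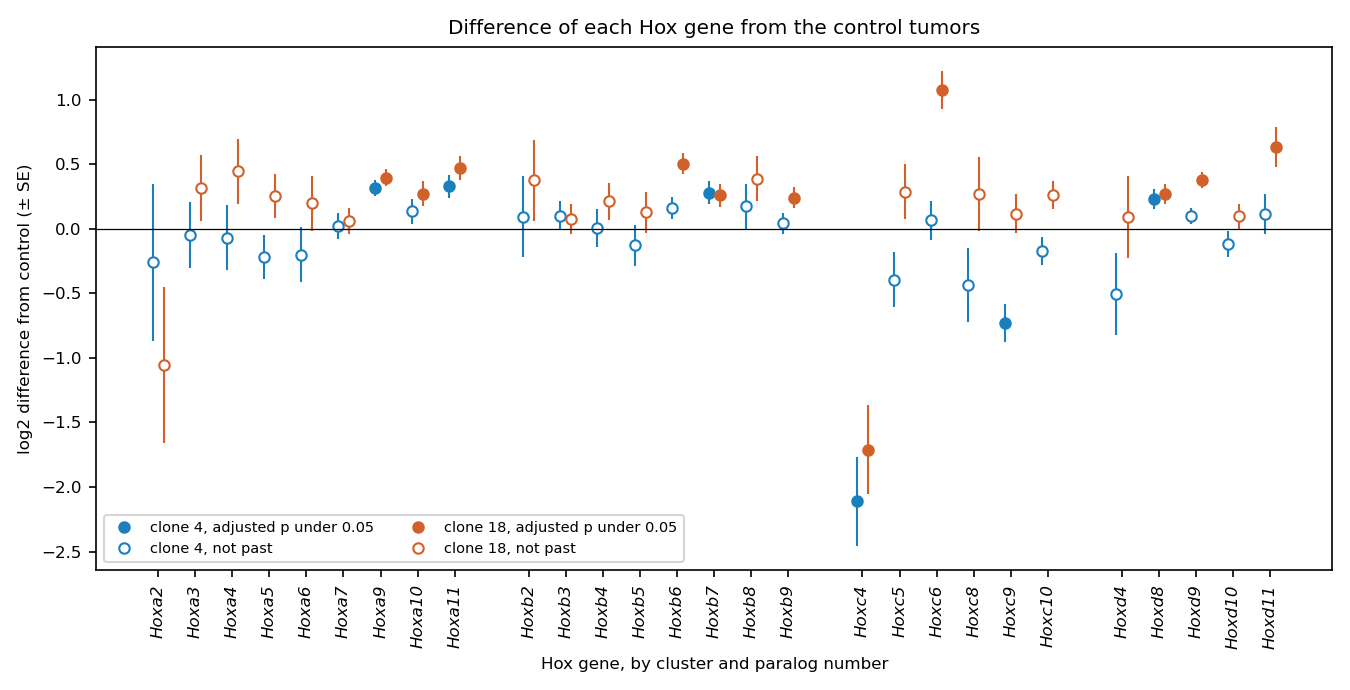
Log2 difference of normalized count + 1 from the 5 control tumors (± SE of the limma fit) for each of 28 Hox genes in clone 4 (blue) and clone 18 (orange), by cluster and paralog number; filled points have an adjusted p under 0.05. In clone 18, 26 of 28 points are above 0 and *Hoxc6* is highest, at 1.07, while *Hoxc4* is lowest in both clones, at -2.11 and -1.71.

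*Hoxc6*, a central gene that is expressed from the lower neck and in the mammary gland (ENSMUSG00000001661, chr15:102998257-103011881, plus strand), was higher in clone 18 and lies in the same cluster as *Hoxc4*. The tumors gave normalized counts of 244.9, 306.5, 319.9, 276.8 and 247.4 in control tumors 1 to 5, then 365.5, 220.7, 360.1, 243.5 and 290.7 in tumors 6 to 10 of clone 4, and 529.6, 732.1, 634.8, 537.3 and 519.5 in tumors 11 to 15 of clone 18. The lowest clone 18 tumor, 15, was above the highest clone 4 tumor, 6, and clone 4 and the control overlapped. The mean of the control was 279 ± 33.9 (SD, n = 5 in each group), against 296 ± 65.9 for clone 4 and 591 ± 91.6 for clone 18. Clone 18 was on average at 212% of the control, and the log2 difference was 1.07 (SE 0.15, limma adjusted p = 7.66e-05). Clone 4 was at 106% of the control, with a log2 difference of 0.06 (limma adjusted p = 0.829). The clones differed by 1.01 (SE 0.15, limma adjusted p = 0.000512), and the exact permutation test gave p = 0.00794, the smallest that 252 splits allow. No other setting or left-out tumor ended the calls of clone 18. Over both clones the difference of 0.57 was not called with limma (adjusted p = 0.106), and it was called with DESeq2 (0.67, adjusted p = 0.0215) and without tumor 7 (0.67, adjusted p = 0.0379).

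*Hoxc9*, which organizes motor columns of the trunk (ENSMUSG00000036139, chr15:102976439-102985099, plus strand), was lower in clone 4. Normalized counts of the gene were 235.6, 343.5, 272.6, 302.5 and 288.6 in control tumors 1 to 5, then 156.2, 173.9, 197.9, 157.0 and 180.5 in tumors 6 to 10 of clone 4, and 267.4, 259.6, 439.8, 340.8 and 277.6 in tumors 11 to 15 of clone 18. Each clone 4 tumor was below each control and each clone 18 tumor, and clone 18 overlapped the control. The control averaged 289 ± 39.6 (SD, n = 5 in each group), against 173 ± 17.4 for clone 4 and 317 ± 75.8 for clone 18. Clone 4 was on average at 60.0% of the control, and the log2 difference was -0.73 (SE 0.15, limma adjusted p = 0.00257), and in clone 18 the log2 difference was 0.12 (adjusted p = 0.622). The clones differed by 0.85 (SE 0.15, limma adjusted p = 0.00262, exact permutation p = 0.00794). Without the 5 tumors highest in muscle markers, the difference between the clones was 0.94 (limma adjusted p = 0.0649).

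*Hoxd11*, the partner of *Hoxa11* in kidney and forearm development (ENSMUSG00000042499, chr2:74679557-74687016, plus strand), was higher in clone 18. Its values, in normalized counts, were 117.2, 146.2, 141.0, 132.2 and 120.5 in control tumors 1 to 5, then 140.8, 128.0, 138.3, 139.9 and 163.8 in tumors 6 to 10 of clone 4, and 159.2, 233.8, 282.7, 193.5 and 173.5 in tumors 11 to 15 of clone 18. The lowest clone 18 tumor, 11, was above the highest control tumor, 2, and below clone 4 tumor 10. Control tumors averaged 131 ± 12.6 (SD, n = 5 in each group), against 142 ± 13.1 for clone 4 and 208 ± 50.1 for clone 18. Clone 18 differed from the control by 0.64 (SE 0.16, limma adjusted p = 0.00634). In clone 4 the difference was 0.11 and was not called (limma adjusted p = 0.691). The difference between the clones was 0.52 (SE 0.16, limma adjusted p = 0.0642), and it was called with DESeq2 (0.56, adjusted p = 0.0136), without tumor 11 (0.61, adjusted p = 0.0404) and without the 5 tumors highest in muscle markers (0.92, adjusted p = 0.0354).

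*Hoxa10* and *Hoxb9* were called in clone 18 near the threshold. *Hoxa10* is best known for its part in the uterus (ENSMUSG00000000938, chr6:52231197-52240854, minus strand). Its normalized count was 2205.0, 1936.8, 2303.4, 2090.9 and 2263.7 in control tumors 1 to 5, then 2669.2, 2374.6, 2702.6, 2225.5 and 1945.0 in tumors 6 to 10 of clone 4, and 2762.5, 2490.3, 3013.2, 2216.2 and 2604.0 in tumors 11 to 15 of clone 18. The groups overlapped, and clone 18 tumor 13 was highest. On average control tumors had 2160 ± 148 (SD, n = 5 in each group), against 2383 ± 316 for clone 4 and 2617 ± 298 for clone 18. The difference of 0.27 (SE 0.09, limma adjusted p = 0.0437) was lost on leaving out any 1 of tumors 1, 2, 4, 5, 7, 11, 12, 13 and 15 (adjusted p = 0.0512 to 0.11). Over both clones the difference of 0.20 (limma adjusted p = 0.10) was called without tumor 10 (0.24, adjusted p = 0.0248) and without the 5 tumors highest in muscle markers (0.29, adjusted p = 0.0196).

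*Hoxb9*, the member with the highest level per kilobase in control tumors (ENSMUSG00000020875, chr11:96271457-96276595, plus strand), was called higher in clone 18. In normalized counts it was at 2050.6, 1892.7, 2036.4, 1941.9 and 2177.0 in control tumors 1 to 5, then 2219.9, 1802.2, 2159.5, 1972.9 and 2273.6 in tumors 6 to 10 of clone 4, and 2421.6, 2724.1, 2467.4, 2004.7 and 2356.6 in tumors 11 to 15 of clone 18. Clone 18 tumor 14 lay within the control range, while the other 4 clone 18 tumors lay above it. The mean of the control was 2020 ± 109.7 (SD, n = 5 in each group), against 2086 ± 195 for clone 4 and 2395 ± 259 for clone 18. The difference of 0.24 in clone 18 (SE 0.08, limma adjusted p = 0.0384) was lost on leaving out any 1 of tumors 1, 2, 3, 4, 11, 12, 13 and 15 (adjusted p = 0.0575 to 0.101).

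The last comparison set clone 18 directly against clone 4, with a spread estimated from the tumors of all groups, the control included. Of 28 members, 5 (17.9%) were called, beside 4.62% of all genes. These were *Hoxb6*, *Hoxc6*, *Hoxc9*, *Hoxc10* and *Hoxd9*, all higher in clone 18, beside 2.49% of all genes called higher and 2.13% lower. The same 5 did not overlap between the clones, beside 5.52% of all genes (2.64% higher and 2.88% lower). The median log2 difference was 0.28 over the members and -0.01 over all genes, and 25 of 28 members were positive, beside 47.5% of all genes. All 6 members of cluster C were positive, from 0.40 for *Hoxc4* to 1.01 for *Hoxc6*, with a median of 0.69. The medians of the other clusters were 0.14 for A, 0.21 for B and 0.28 for D. *Hoxc10*, a gene of the lumbar trunk and hindlimb (ENSMUSG00000022484), averaged 573 ± 75.3 in the control (SD, n = 5 per group), 506 ± 46.1 for clone 4 and 686 ± 82.4 for clone 18. The clones differed in *Hoxc10* by 0.44 (SE 0.11, limma adjusted p = 0.026), a call lost on leaving out any 1 of tumors 7, 9, 11, 13 and 14 (adjusted p = 0.0524 to 0.0661). Without tumor 9 or without tumor 13, 3 members were called, beside 3.89% and 3.79% of all genes. Without the 5 tumors highest in muscle markers 2 members were called, *Hoxc6* and *Hoxd11*, beside 1.68% of all genes. In that smaller set the differences between the clones were 0.41 for *Hoxb6* (limma adjusted p = 0.0945) and 0.46 for *Hoxc10* (adjusted p = 0.178), and neither was called.

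**Figure D4:**
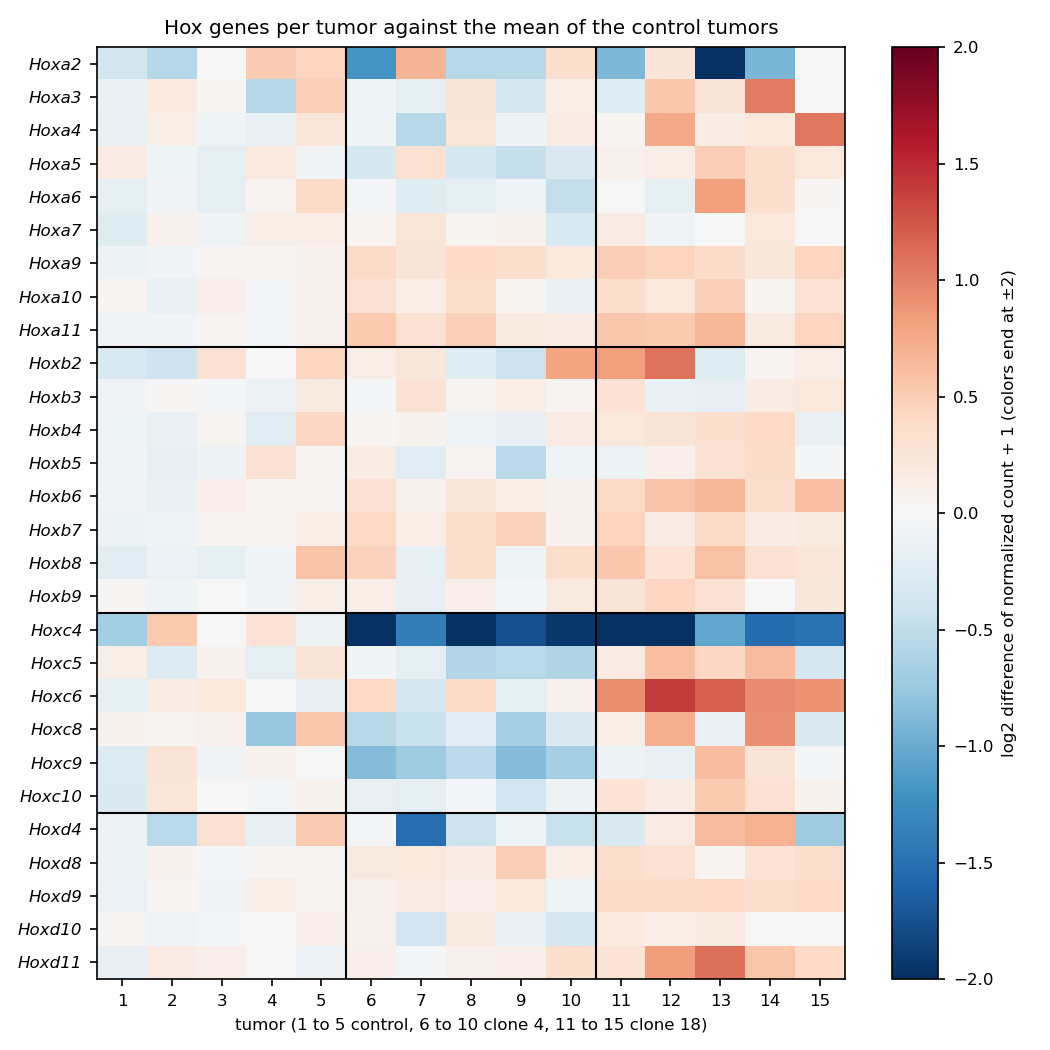
Log2 difference of normalized count + 1 from the mean of the 5 control tumors, for 28 Hox genes (rows, by cluster and paralog number) in 15 tumors (columns); red is higher and blue lower, and colors end at ±2. The *Hoxc4* row is blue in tumors 6 to 15, the *Hoxc9* row is blue in tumors 6 to 10 and the *Hoxc6* row is red in tumors 11 to 15.

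The other 15 members passed no threshold with limma over all tumors in any of the 4 comparisons. Other settings called some of them. DESeq2 called 4 members of cluster C between the clones, beside 3 with limma, where 7.45% and 4.62% of all genes were called. With 1 tumor left out, limma called up to 4 members of cluster B in clone 18, beside 3 with all tumors. Between the clones it then called up to 1 of cluster A and 4 of cluster C, beside 0 and 3. The shares of all genes called with 1 tumor left out were 20.8% to 25.3% in clone 18 and 3.46% to 4.91% between the clones. Against the control, the log2 differences of these 15 lay between -0.50 (*Hoxd4*) and 0.17 (*Hoxb8*) in clone 4. In clone 18 they lay between 0.06 (*Hoxa7*) and 0.45 (*Hoxa4*), apart from *Hoxa2*. *Hoxa2* had the fewest reads of the members, from 0 in tumor 13 to 20.1 normalized counts in tumor 7, and its difference of -1.06 in clone 18 had a standard error of 0.61 (limma adjusted p = 0.224). *Hoxa7* and *Hoxd10* were the most abundant of these 15. *Hoxa7* averaged 874 ± 91.8 in the control (SD, n = 5 per group), 888 ± 116 for clone 4 and 912 ± 77.5 for clone 18. *Hoxd10* averaged 1046 ± 47.1 in the control, 974 ± 167 for clone 4 and 1120 ± 74.6 for clone 18, with log2 differences of -0.12 and 0.10 (limma adjusted p = 0.474 and 0.516).

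By paralog number, the calls of the knockout comparison fell on 3 of 9 members of numbers 9 to 13 and 4 of 15 of numbers 4 to 8, beside 22.1% of all genes. No member of numbers 1 to 3 was called among 4 with limma, edgeR or DESeq2, and 0 of them had an unadjusted p under 0.05. These 4 had a median of 8.08 per kilobase in control tumors, beside 530 for numbers 9 to 13. Their standard errors were 0.54 for *Hoxa2*, 0.27 for *Hoxb2*, 0.23 for *Hoxa3* and 0.10 for *Hoxb3*, beside 0.06 for *Hoxa9*. Paralog number and level therefore cannot be told apart here. In clone 18, 6 of the 9 members of numbers 9 to 13 were called, all higher, beside 10.4% of all genes called higher, and all 9 had a positive difference, beside 46.7% of all genes. Both paralog-11 members rose in clone 18, *Hoxa11* by 0.47 and *Hoxd11* by 0.64, whereas the 4 paralog-9 members ranged in clone 4 from -0.73 for *Hoxc9* to 0.32 for *Hoxa9*. Summed over the 28 members, the normalized counts per tumor were 15552 to 17368 in the control, 16445 to 18862 in clone 4 and 18795 to 21303 in clone 18. The sum over cluster C was 1127 to 1588 in the control, 936 to 1201 in clone 4 and 1518 to 2068 in clone 18, so that the clones did not overlap.

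Hox proteins bind DNA together with TALE homeodomain proteins of the Pbx and Meis families. Of 7 such cofactors tested, 2 (28.6%) were called in the knockout tumors, both lower, beside 22.1% of all genes called and 12.9% called lower, so the share was near the background. *Meis2* was at 37.1, 210, 111, 178 and 56.0 normalized counts in control tumors 1 to 5, and at 3.0 to 36.9 in the 10 knockout tumors, all below the lowest control tumor. Its log2 difference was -2.60 (SE 0.49, limma adjusted p = 0.00112). *Pbx3* differed by -0.24 (limma adjusted p = 0.00698). Without the 5 tumors highest in muscle markers, 1 of the 7 was called, beside 17.1% of all genes.

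Among 24 genes known to set Hox transcription, 3 were called in the knockout tumors, beside 22.1% of all genes. *Men1*, whose product menin tethers the MLL methyltransferase, was higher by 0.29 (SE 0.07, limma adjusted p = 0.0091). *Suz12*, a core Polycomb subunit, was lower, with a difference of -0.34 (SE 0.09, limma adjusted p = 0.00947). *Cyp26a1*, which degrades retinoic acid, differed by -1.21 (SE 0.33, limma adjusted p = 0.0138). *Rarg*, a retinoic acid receptor, was higher in clone 18 than in the control (0.34, limma adjusted p = 0.000917) and than in clone 4 (0.34, adjusted p = 0.00413), and was named after its values were seen.

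Of 8 noncoding RNAs of the clusters tested, 0 were called in the knockout tumors with limma, beside 22.1% of all genes. With limma 3 had an unadjusted p under 0.05. EdgeR called 1, beside 22.5% of all genes, and DESeq2 called 3, beside 25.3%. In clone 18, *Hoxd3os1* was higher by 0.77 (SE 0.15, limma adjusted p = 0.00113), with overlapping groups, and *Hoxaas3* was higher by 0.59 (SE 0.17, adjusted p = 0.0186). *Hoxd3os1* overlaps 11.8% of the exon bases of *Hoxd4*, and *Hoxaas3* overlaps exons of *Hoxa3* and *Hoxa7*, on the other strand, and none of these 3 Hox genes was called. Of 26 other homeobox genes, 4 (15.4%) were called in the knockout tumors, beside 22.1% of all genes. Lower were *Zeb1* (-0.20, limma adjusted p = 0.0251), *Satb1* (-0.96, adjusted p = 0.0362) and *Six4* (-0.30, adjusted p = 0.0452), and *Six5* was higher (0.59, adjusted p = 0.0167). The number called was 1 without tumor 4 or tumor 5, and 2 without tumor 2, 8, 9 or 13, beside 17.6% to 22.2% of all genes.

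Of 35 flanking genes tested, 9 were called in the knockout tumors, all lower, beside 12.9% of all genes called lower. Without tumor 1, tumor 3 or tumor 5 the number was 5, beside 17.9%, 17.7% and 18.3% of all genes called in either direction. It was also 5 without the 5 tumors highest in muscle markers, beside 17.1% of all genes. Of the 11 neighbours of cluster C, 6 were lower in clone 4, namely *Calcoco1*, *Atp5g2*, *Copz1*, *Hnrnpa1*, *Cbx5* and *Smug1*, with differences of -0.69 to -0.33. Called lower in clone 4 were 10.0% of all genes and 23.3% of the genes on the rest of chromosome 15 with a mean of 10 or more. In clone 18, 1 of the 11 was lower, *Hnrnpa1* (-0.44, limma adjusted p = 0.000308). *Hnrnpa1*, an RNA-binding protein gene with its middle 242 kb from the middle of the cluster, was at 11390 ± 1028 (SD, n = 5) in control tumors and at 8372 ± 387 in clone 18. Over all 37 genes within 1 Mb of cluster C whose normalized counts averaged 10 or more, a window chosen after seeing the values, the median log2 difference was -0.21 in clone 4 and -0.18 in clone 18, beside -0.11 and -0.07 for the 545 such genes on the rest of chromosome 15. Of the 37, 10 were called lower in clone 4 and 9 in clone 18, where 20.6% of the 545 were. The medians of the 6 Hox genes of the cluster were -0.42 and 0.27 in the same comparisons. Around clusters A, B and D, the medians of the genes within 1 Mb lay between -0.09 and 0.06 in both clones. Whether the neighbours and the Hox genes of cluster C changed together was not tested.

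**Figure D5:**
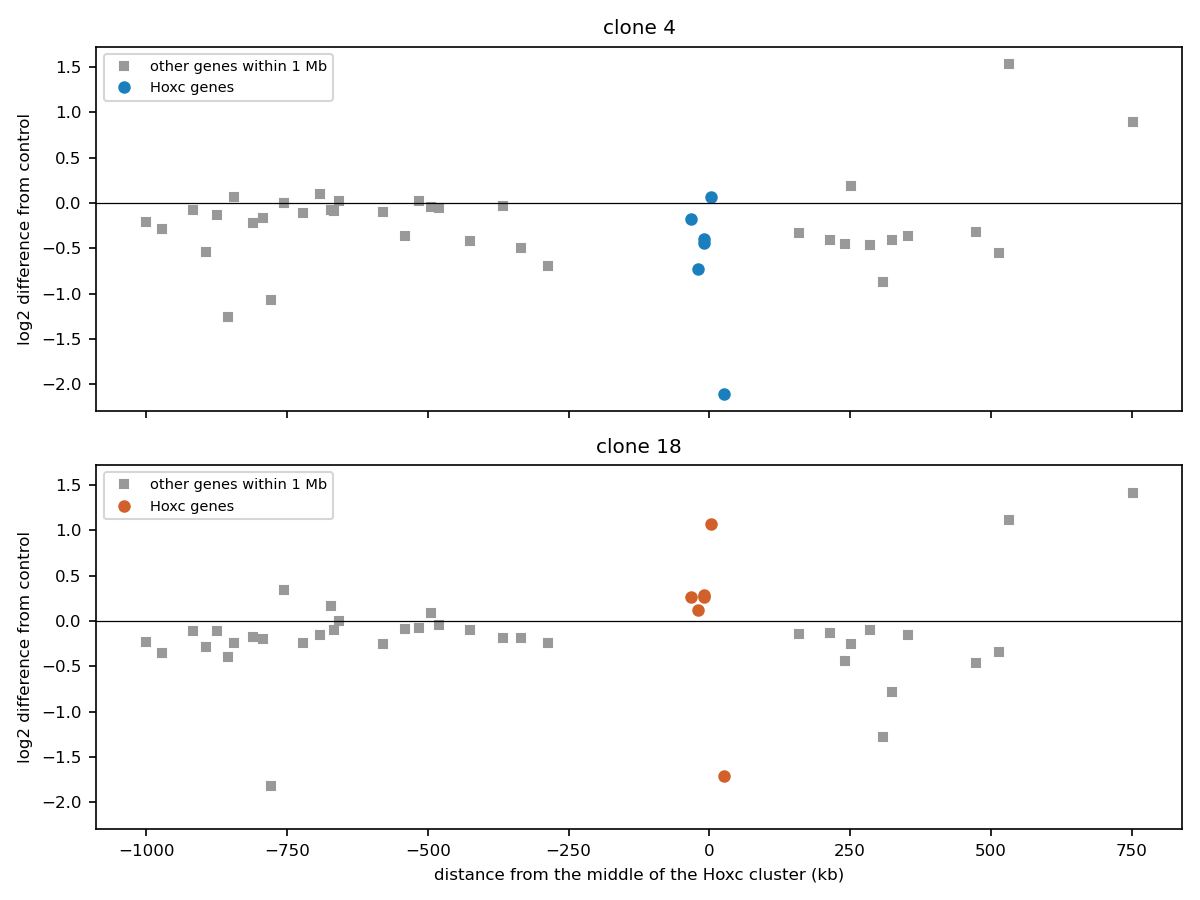
Log2 difference of normalized count + 1 from the 5 control tumors against the distance of a gene's middle from the middle of the Hoxc cluster (kb), in clone 4 (top) and clone 18 (bottom); circles are the 6 Hox genes, grey squares the 37 other genes within 1 Mb. The medians of the 37 genes are -0.21 and -0.18, while 5 of the 6 Hox genes are above 0 in clone 18.

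Markers of other cell types differed between tumors and are given beside these results. Over all genes, 9.23% were called higher and 12.9% lower in the knockout tumors with limma. In either direction 22.1% were called with limma, 22.5% with edgeR and 25.3% with DESeq2. Called lower were 10.0% of all genes in clone 4 and 14.2% in clone 18, where 10.4% were called higher. The sum over 8 fibroblast markers was 49833 to 82866 normalized counts in the control, 19259 to 185541 in clone 4 and 61380 to 122857 in clone 18. None of the 8 was called in any of the 4 comparisons with limma, edgeR or DESeq2. With limma 0 had an unadjusted p under 0.05 against the control, and 1 had between the clones, *Lum* (1.35, limma adjusted p = 0.209). The median log2 difference of the 8 between the clones was 0.50, and 7 of 8 were positive. In clone 4 tumor 6, where the fibroblast sum was lowest, the 28 Hox members summed to 18862.4 normalized counts. In clone 4 tumor 10, where the fibroblast sum was highest, they summed to 16445.3. Cluster A gave 7925.8 in tumor 6 and 6346.2 in tumor 10, and cluster B 4989.5 and 4715.4. Cluster C gave 1144.7 and 1100.5, and cluster D 4802.4 and 4283.2. Of single members, *Hoxa9* was at 2404.1 in tumor 6 and 2118.7 in tumor 10, and *Hoxc9* at 156.2 and 180.5. The sum over 6 skeletal muscle markers was 73.2 to 196 in the control, 51.8 to 1174 in clone 4 and 86.1 to 1895 in clone 18. Of these 6, 0 were called in the knockout tumors with limma (2 at an unadjusted p under 0.05) and 4 with edgeR and with DESeq2. The sum over 5 macrophage markers was 64392 to 83061 in the control, 50149 to 63260 in clone 4 and 46726 to 62997 in clone 18. In the knockout tumors 3 of these 5 were called lower, *Csf1r* (-0.60), *C1qa* (-0.38) and *Mrc1* (-0.48). *Csf1r* was called lower in clone 4, and in clone 18 4 markers were called lower and 1 (*Cd68*) higher. T cell markers summed to 505 in control tumor 1 and to 39.0 to 165 in the other tumors, and 1 of the 4 (*Cd3g*) was called lower in the knockout tumors with limma. All 4 had a negative log2 difference there, with a median of -1.17, and 3 had an unadjusted limma p under 0.05. EdgeR and DESeq2 each called 2 of the 4. The 4 adipocyte markers, of which *Lep* was called lower in the knockout tumors, summed to at most 163 and the 2 keratinocyte markers in the table to at most 18.0, and each of these 6 was at 0 in at least 1 tumor. None of 6 endothelial markers was called in the knockout tumors (0 with an unadjusted limma p under 0.05). The sum over 9 renal epithelium markers was 114805 to 138523 in the control, 98526 to 128558 in clone 4 and 104420 to 120544 in clone 18. Its means were 128300 ± 8832 (SD, n = 5 in each group), 111700 ± 11290 and 111500 ± 6806. Of these 9, *Epcam* was higher (1.23) and *Krt18* lower (-0.32) in the knockout tumors. *Pax8* was called lower in clone 18 (-0.27, limma adjusted p = 0.0238). The part of these cell types in the Hox differences was not tested.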

How the data were processed

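Bulk RNA-seq of 15 tumors was given as 1 table of normalized read counts. Per the labels and the study's methods, the authors aligned reads to mm10 with TopHat2, obtained gene counts with HTSeq and scaled them by DESeq size factors. The deposited values are thus a normalized signal per gene, rounded to 1 decimal, and whether counting used strand is not given in the sources used here. From the smallest steps between values, whole reads were recovered for 100.0% of values up to 8000 (within 0.06), which gave the depths and the input of edgeR and DESeq2.

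Groups came from the source names of the sample records, and the sample titles matched the table columns to samples. Of 18279 genes, 29 at 0 in all tumors were left out, and limma 3.58.1 (R 4.3.3) was fitted with an intensity trend on log2(normalized count + 1) of the other 18250, first with control and knockout as groups and then with control, clone 4 and clone 18. Differences therefore understate changes of low genes. The Benjamini-Hochberg adjustment ran over all genes, with a threshold of 0.05. Single Hox genes were also tested by exact permutation of tumor labels, two-sided. Alternatives were pseudocounts of 0.1 and 5, a minimum mean of 10 (16494 genes), upper-quartile scaling, edgeR 4.0.16 quasi-likelihood and DESeq2 1.42.0 on the recovered reads, and leaving out each tumor. The fits were tested on simulated data. Replicate tumors differed by more than sampling noise, with chi-square per degree of freedom of 17.7 to 164 over 30 pairs.

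Members and gene lists (Hox cofactors, regulators and noncoding RNAs, flanking genes, other homeobox genes and markers of renal epithelium, fibroblasts, endothelium, macrophages, T cells, muscle, adipocytes and keratinocytes) were chosen with earlier results of these data known. Of the 13 reported members called in any of the 4 comparisons, the 12 with the smallest adjusted p in the knockout comparison were given in full and *Hoxc10* with group means, and up to 4 called genes of each other list by smallest p. Lengths, positions and transcripts came from GENCODE M21 (GRCm38), promoters from RefSeq (GRCm38.p6). Protein sequences were not used here. Results of 3 genes of these lists are not reported here, and these genes enter no count over a list.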

Additional observations from a re-analysis of the deposited data

Results flagged for a closer look

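Values of single tumors were examined in 81 groups of 5 tumors (each named gene in each group), of which chance flags about 1 in 20, or 4.0, and 4 stood apart by Dixon's criterion (gap over range above 0.71). *Hoxd8* was at 2681.8 normalized counts in clone 4 tumor 9, while the other 4 tumors of that clone were at 2055.3 to 2190.2. *Suz12* was at 3268.7 in clone 18 tumor 14 (others 3070.8 to 3110.1). *Igf2bp1*, which lies beside cluster B, was at 1109.4 in clone 4 tumor 7 (others 802.7 to 868.9) and at 990.3 in clone 18 tumor 14 (others 769.7 to 827.3).

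The clones differed from each other, relative to the same control, for 5 Hox genes in the limma test of clone 18 against clone 4. On the log2 scale the differences were 0.34 for *Hoxb6*, 1.01 for *Hoxc6*, 0.85 for *Hoxc9*, 0.44 for *Hoxc10* and 0.28 for *Hoxd9*. Only 1 clone gave each set of 5 tumors, so the effect of the *Pbrm1* edit in a clone and that of the clone itself cannot be told apart.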

How the results depend on the processing

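No paired analysis was possible because no label links a tumor of one group to a tumor of another. Of 29 calls of a Hox gene in a comparison, 14 were kept in all 22 alternatives, and none of the 29 changed direction. Leaving out 1 tumor at a time gave 4 to 8 Hox genes called for knockout against control, 3 to 6 for clone 4, 8 to 11 for clone 18 and 3 to 5 for clone 18 against clone 4. Over all genes the shares called were, in the same order, 17.6% to 22.9%, 13.2% to 18.2%, 20.8% to 25.3% and 3.46% to 4.91%. The number of Hox genes was 4 without tumor 1 for knockout against control, 3 without tumor 6 or 8 in clone 4, and 3 without tumor 9 or 13 between the clones. In the same way 2 cofactors (under each tumor left out), 0 to 1 noncoding RNAs (1 without tumor 4, 6, 10 or 14), 5 to 9 flanking genes (5 without tumor 1, 3 or 5) and 1 to 4 other homeobox genes (1 without tumor 4 or 5) were called. Without the 5 tumors highest in muscle markers, chosen after the values were seen, 2 Hox genes were called between the clones, 1 cofactor and 5 flanking genes. In that set 1.68% of all genes were called between the clones and 17.1% between knockout and control. Noncoding RNAs called were 1 with a pseudocount of 5, with a minimum mean of 10 or with edgeR, and 3 with DESeq2. All genes within 1 Mb of a cluster, also chosen later, gave 24 of 110 called in place of 9 of 35, beside 22.1% of all genes called between knockout and control. The causes were not tested.

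Differences near 0 that were not called changed sign. *Hoxb7* between the clones was 0.004 with upper-quartile scaling, and 0.009, 0.026, 0.01, 0.01 and 0.001 without tumor 6, 9, 12, 14 or 15 (range -0.068 to 0.026 over left-out tumors). *Hoxc6* in clone 4 was -0.019 and -0.013 without tumor 6 or 8 (up to 0.163 without others), *Hoxc9* in clone 18 was -0.009 without tumor 13 (up to 0.182), and *Hoxc10* over both clones was -0.028 and -0.008 without tumor 1 or 13 (up to 0.105). Depth limits *Hoxa2* most, with at most 21 reads in a tumor.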
